A study of Gallus gallus with 4 samples.

Results

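The transcriptome of whole chick embryos exposed to thalidomide alone was set against that of control embryos over all genes with at least 20 reads in one library or the other. Of 13081 genes in the table, 12138 met that minimum. Embryos of Hamburger-Hamilton stage 8 were treated with thalidomide at 40 µg/ml or with DMSO, the solvent, and whole embryos were taken on day 6 for total RNA. The series holds 4 libraries, 1 for each treatment: thalidomide, the DMSO control, thalidomide at 40 µg/ml plus spermine NONOate at 10 µM (called the combination here), and spermine NONOate at 10 µM alone. Spermine NONOate releases nitric oxide in solution. How many embryos went into each library, and of which sex, is not stated in the labels. With 1 library a group there is no replicate spread and no test, so each difference is one between libraries.

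Thalidomide is a teratogen known for limb, ear, eye, heart, kidney and gut defects. Its target, cereblon, selects the substrates of a ubiquitin ligase that also holds DDB1, a cullin and RBX1. With the drug bound, cereblon takes up other proteins, the zinc finger protein SALL4 among them, which are then degraded. That action is on proteins, so mRNA counts do not measure it. Nitric oxide, the subject of the series, acts largely through soluble guanylate cyclase and cyclic GMP. Organs present at day 6 include the eye with its lens, the inner ear, limbs, heart, liver and the mesonephric kidney, and yolk sac derived red cells fill the circulation.

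Reads in genes numbered 66889240 in the thalidomide library and 79359076 in the control library, and 62576258 to 72309065 in the others. Values are normalised read counts (CPM), scaled to one library size after TMM, a method that sets the bulk of genes level between libraries. A gene is called higher or lower in the thalidomide library by a rule of size, with 3 conditions. The ratio, taken after adding 0.5 reads to both counts, is 2-fold or more, the larger count is 20 or more, and the 95% interval (exact, Clopper-Pearson, conditional on the sum of both counts) leaves out a ratio of 1. Ranges after a log2 ratio (thalidomide over control) are these intervals. Such intervals hold counting error alone and treat each read as a separate molecule, which PCR without molecular identifiers does not ensure. They say nothing of differences between embryos. Each of 24 lists of tissue markers had between 12 and 32 members with enough reads, as had 12138 of all 13081 genes.

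Most genes differed little between the libraries. The ratio lay within 1.5-fold for 7314 genes (60.3%), the median log2 ratio was -0.01 and the quartiles were -0.45 and 0.47. The rule called 1119 genes higher (9.22% of those tested) and 878 lower (7.23%), or 16.5% in either direction. At 4-fold the counts were 207 higher (1.71%) and 140 lower (1.15%), or 2.86% in either direction. The genes that were higher summed to 49702.5 CPM in the thalidomide library, against 20549.6 CPM in the control library. The genes that were lower summed to 48096 CPM in the thalidomide library, against 134811 CPM in the control library. Among the higher genes 321 bore no symbol, as did 182 of the lower genes. In the fifth of genes with the lowest mean level 19% were higher and 15.3% lower, and in the fifth with the highest 3.58% were higher and 3.91% lower. At the minimum itself, 23 genes had exactly 20 reads in the higher library and 9 of them were called, with a median log2 ratio of 0.76. The 22 genes with 19 reads were not tested and had a median of -0.07.

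Scaling moved the balance of calls. With libraries scaled to total counts in place of TMM the median log2 ratio of all genes was 0.19, with 1674 genes higher and 560 lower, so that 74.9% of called genes were higher, against 56.0% under TMM. Between the libraries the share of reads in the 50 genes most abundant in the control differed, at 10.4% in the thalidomide library and 18.0% in the control library. The 18 genes of the red blood cell list summed to 6433 CPM in the thalidomide library, against 28804 CPM in the control library. The part of this difference in the other values was not tested. Calls lost with total counts are named with the gene or list described, but not for counts by chromosome, and gains for some lists only. Calls that moved with upper quartile scaling are given in the closing section only. Among the other lists, 13 chromatin, 12 RNA silencing and decay and 8 nitric oxide and cyclic GMP genes were higher with total counts. So were 6 gut epithelium and 9 cullin ligase genes, and in kidney 14 were higher and 0 lower. List counts with total counts stand against 1674 higher and 560 lower of all 12138 genes, not against the shares under TMM.

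**Figure D1:**
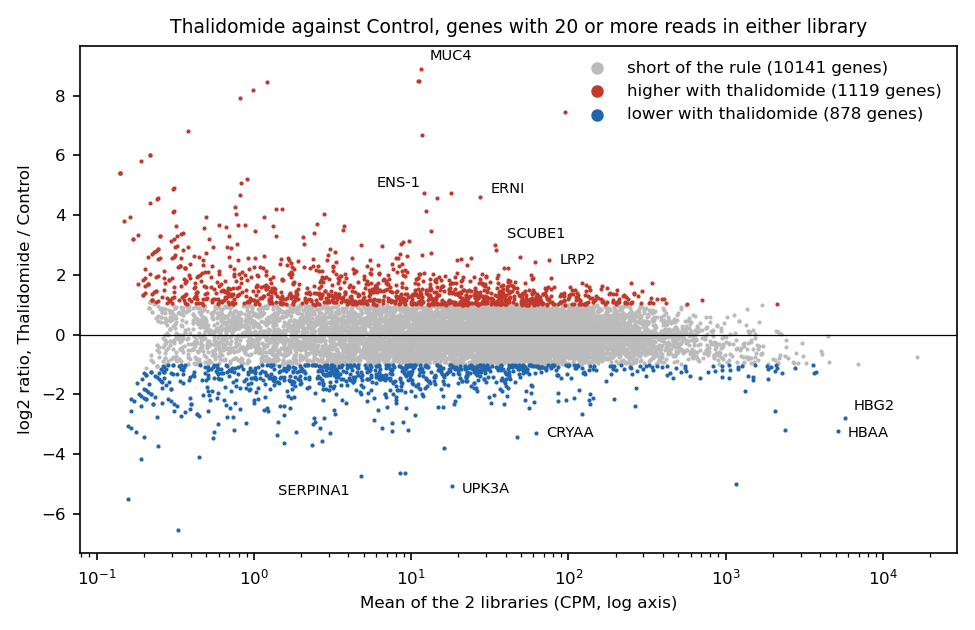
Log2 ratio of thalidomide over control (vertical axis) against the mean level of the gene in both libraries (CPM, log axis) for 12138 genes; red points are the 1119 genes higher by the rule of size, blue points the 878 lower and grey points the rest. Labelled genes are among those described in the text, with HBG2 and HBAA the most abundant of the lower genes that are labelled.

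Spermine NONOate was present in a further pair of libraries that carries the same thalidomide contrast. The combination against spermine NONOate alone shares no library with thalidomide against control. There 1197 genes were higher (9.84%) and 733 lower (6.03%) of 12161 tested. Both contrasts called 606 genes higher, which is 54.2% of the higher genes without spermine NONOate and 50.6% of those with it. Both called 268 genes lower, which is 30.5% of the lower genes without spermine NONOate and 36.6% of those with it. Of the 1082 higher genes tested again, 986 (91.1%) had a ratio above 1 in the other pair, where 50.7% of all genes did. Of the 850 lower genes tested again, 754 (88.7%) were below 1, against 49.3% of all genes. The median log2 ratio of the higher genes was 1.36 in their own contrast and 1.12 with spermine NONOate present, and that of the lower genes was -1.32 and -0.74. Across 12026 genes tested in both contrasts Spearman's rho of the log2 ratios was 0.68 and Pearson's r was 0.66, a description in which genes are not independent replicates. Calls in opposite directions were made for 20 genes.

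**Figure D2:**
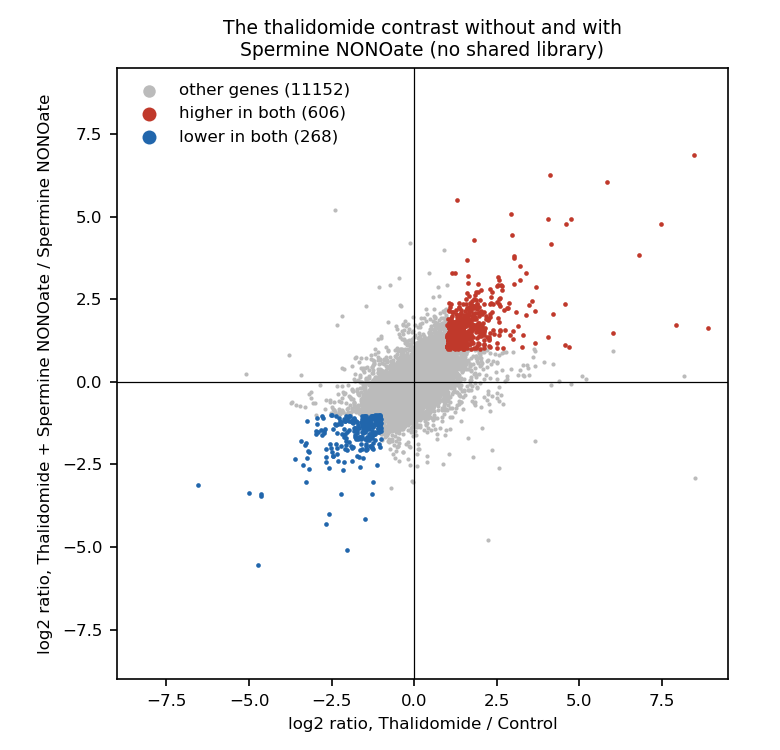
Log2 ratio of thalidomide over control (horizontal axis) against that of the combination over spermine NONOate (vertical axis) for 12026 genes tested in both; red points are 606 genes higher in both, blue points 268 genes lower in both and grey points all others. Red points fill the upper right and blue points the lower left, as the rule in both contrasts sets.

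The genes furthest above control were of several kinds: those high in both libraries with thalidomide, those low in the control library, and those highest in the thalidomide library. These kinds overlap. A1CF, MUC4 and SLC13A1, described with the later kinds, were also called higher with spermine NONOate present, at log2 1.36, 1.63 and 1.73. Of the first kind were ENS-1 and ERNI, which belong to a repetitive family of chicken genes used early in development. ENS-1 had 34.8 CPM in the thalidomide library, against 1.29 CPM in the control library (log2 4.75, 4.46 to 5.07), and 57.7 CPM in the combination library, against 1.88 CPM in the spermine NONOate library. ERNI had 52.8 CPM in the thalidomide library, against 2.17 CPM in the control library (log2 4.60, 4.38 to 4.85), and 84.7 CPM in the combination library, against 3.11 CPM in the spermine NONOate library. ENS-2 of the same family had 103 reads in the thalidomide library and 6 in the control library, and 216 in the combination library and 5 in the spermine NONOate library. Both thalidomide libraries were thus high for all 3 genes and both others low, with the caution that near-identical copies can share reads.

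MPO, annotated as the myeloperoxidase of granulocytes, showed the same order, with 4.72 CPM in the thalidomide library, against 0.357 CPM in the control library (log2 3.70, 3.15 to 4.36), and 3.92 CPM in the combination library, against 0.532 CPM in the spermine NONOate library. PRTG, a membrane receptor of the immunoglobulin superfamily, had 15.9 CPM in the thalidomide library, against 1.87 CPM in the control library (log2 3.09, 2.84 to 3.36), and 8.75 CPM in the combination library, against 2.03 CPM in the spermine NONOate library. ASTL, an astacin-like protease, had 17.4 CPM in the thalidomide library, against 1.96 CPM in the control library (log2 3.14, 2.90 to 3.41), and 6.33 CPM in the combination library, against 1.94 CPM in the spermine NONOate library. In these genes the lower of both thalidomide libraries lay above the higher of both others. CABYR, a calcium-binding protein of the sperm flagellum, and AIRE, a transcriptional regulator of the thymus, were higher by log2 3.4 (2.88 to 4.01) and 4.2 (3.35 to 5.35), and by 2.02 and 2.06 with spermine NONOate present.

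Others had the control library well below all treated libraries. A1CF, which assists the editing of apolipoprotein B transcripts, had 5.31 CPM in the thalidomide library, against 0.315 CPM in the control library (log2 4.05, 3.47 to 4.75), and 12.9 CPM in the combination library, against 5.0 CPM in the spermine NONOate library. SUSD2, a membrane protein, had 2.45 CPM in the thalidomide library, against 0.192 CPM in the control library (log2 3.63, 2.89 to 4.58), and 7.06 CPM in the combination library, against 3.54 CPM in the spermine NONOate library. C12ORF59 had 124 reads in the thalidomide library and 3 in the control library, and 167 in the combination library and 123 in the spermine NONOate library. For these 3 genes all 3 treated libraries lay above the control library.

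MUC4, a membrane mucin of epithelia, and SLC51A, part of a carrier that exports bile acids, were highest in the thalidomide library itself. MUC4 had 1626 reads there and 3 in the control library (log2 8.91, 7.58 to 11.41), with 181 in the combination library and 45 in the spermine NONOate library. A second gene of that symbol, annotated on the opposite strand of chromosome 9, had 1638 and 16 reads in the thalidomide and control libraries, and 6 and 9 in the combination and spermine NONOate libraries. Whether counting used strand is not given in the sources used here. SLC51A had 23.6 CPM in the thalidomide library, against 1.33 CPM in the control library (log2 4.14, 3.85 to 4.46), and 5.22 CPM in the combination library, against 5.63 CPM in the spermine NONOate library. SLC13A1, a sulfate transporter of kidney and gut, had 116 reads in the thalidomide library and 0 in the control library, which is at least 40.0-fold higher when the control count is set to a floor of 3. Unlike MUC4 and SLC51A, SLC13A1 was highest in the combination library, with 245 reads, and had 57 in the spermine NONOate library. The control library was the lowest of the 4 for it, and it was called higher in both pairs.

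Of the genes furthest below control, several were also lower with spermine NONOate present. RHAG, a glycoprotein of the red cell membrane, had 0.694 CPM in the thalidomide library, against 17.6 CPM in the control library (log2 -4.65, -5.11 to -4.25), and 2.19 CPM in the combination library, against 24.3 CPM in the spermine NONOate library. SERPINA1, which encodes alpha-1 antitrypsin, had 0.340 CPM in the thalidomide library, against 9.24 CPM in the control library (log2 -4.74, -5.42 to -4.18), and 1.57 CPM in the combination library, against 73.4 CPM in the spermine NONOate library. TNMD, a tendon membrane protein, had 7.94 CPM in the thalidomide library, against 86.3 CPM in the control library (log2 -3.44, -3.57 to -3.32), and 17.6 CPM in the combination library, against 60.7 CPM in the spermine NONOate library. Each was lower in the thalidomide library of both pairs, while SERPINA1 also differed between the libraries without thalidomide and was highest in the spermine NONOate library.

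NME4, a nucleoside diphosphate kinase, had 16 reads in the thalidomide library and 209 in the control library (log2 -3.62, -4.49 to -2.93), and a log2 ratio of -2.33 with spermine NONOate present. UPK3A, a uroplakin of urothelium, was high in the control library alone, with 1.03 CPM in the thalidomide library, against 35.3 CPM in the control library (log2 -5.08, -5.45 to -4.76), and 1.70 CPM in the combination library, against 1.43 CPM in the spermine NONOate library. GAL5, a beta-defensin, had 0.411 CPM in the thalidomide library, against 4.98 CPM in the control library (log2 -3.58, -4.2 to -3.05), and 2.51 CPM in the combination library, against 4.06 CPM in the spermine NONOate library, which is short of the rule. The values of UPK3A therefore set the control library apart from the 3 others, and those of GAL5 set the thalidomide library apart.

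**Figure D3:**
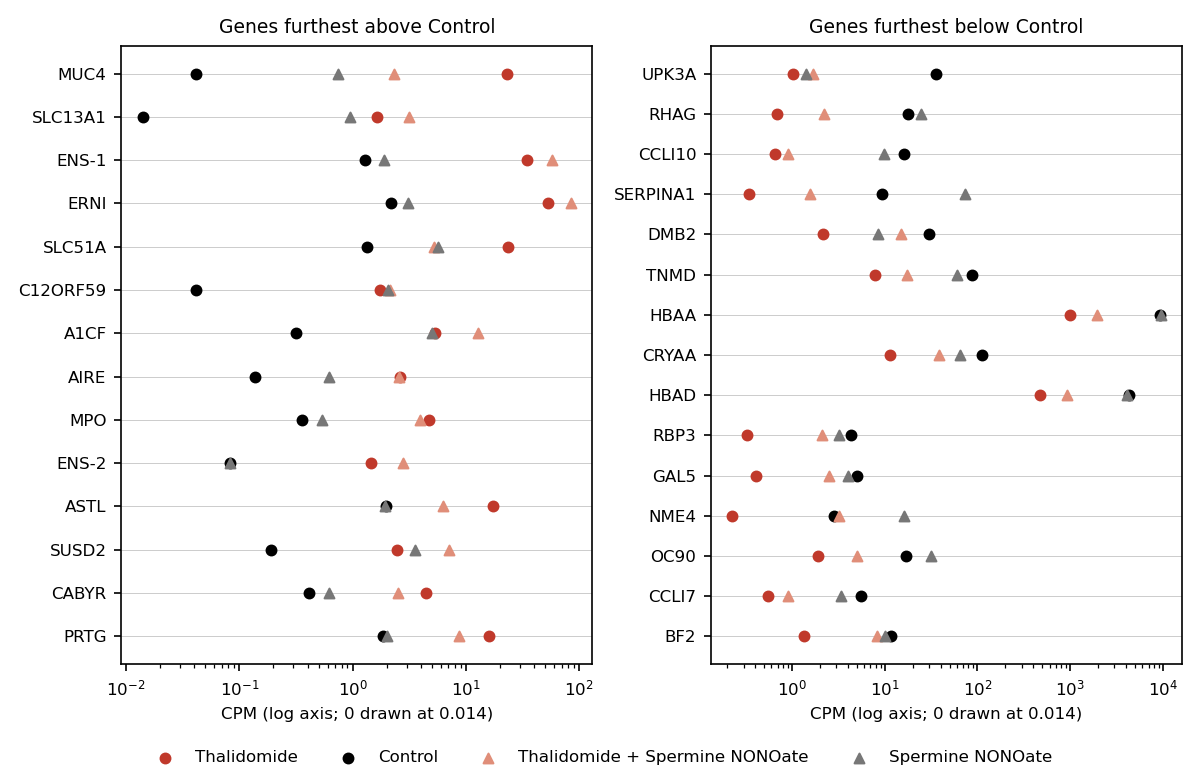
CPM (log axis) in each of the 4 libraries for 14 of the 15 genes furthest above control (left panel) and the 15 furthest below it (right panel), ordered by the bound of the interval nearest to no change; red circles are thalidomide, black circles control, light red triangles the combination and grey triangles spermine NONOate. ENS-1, ERNI, ENS-2, MPO, ASTL, CABYR, PRTG, AIRE, SLC13A1, MUC4 and, by a small margin, A1CF have both red symbols right of both dark ones. C12ORF59 and SUSD2 have the black circle alone at the left.

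Gene lists for tissues, pathways and cell machinery, 72 in all with 2496 distinct genes in the table, give the groups that follow. Their counts under TMM stand against the 9.22% of all genes that were higher and the 7.23% that were lower. The lists hold 246 of the higher and 223 of the lower genes. In 34 lists at least 3 members were higher, and in 29 at least 3 were lower. The largest shares of members lower were in lens, red blood cells, cytosolic ribosomal proteins and skeletal muscle, and the largest share higher was in kidney.

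**Figure D4:**
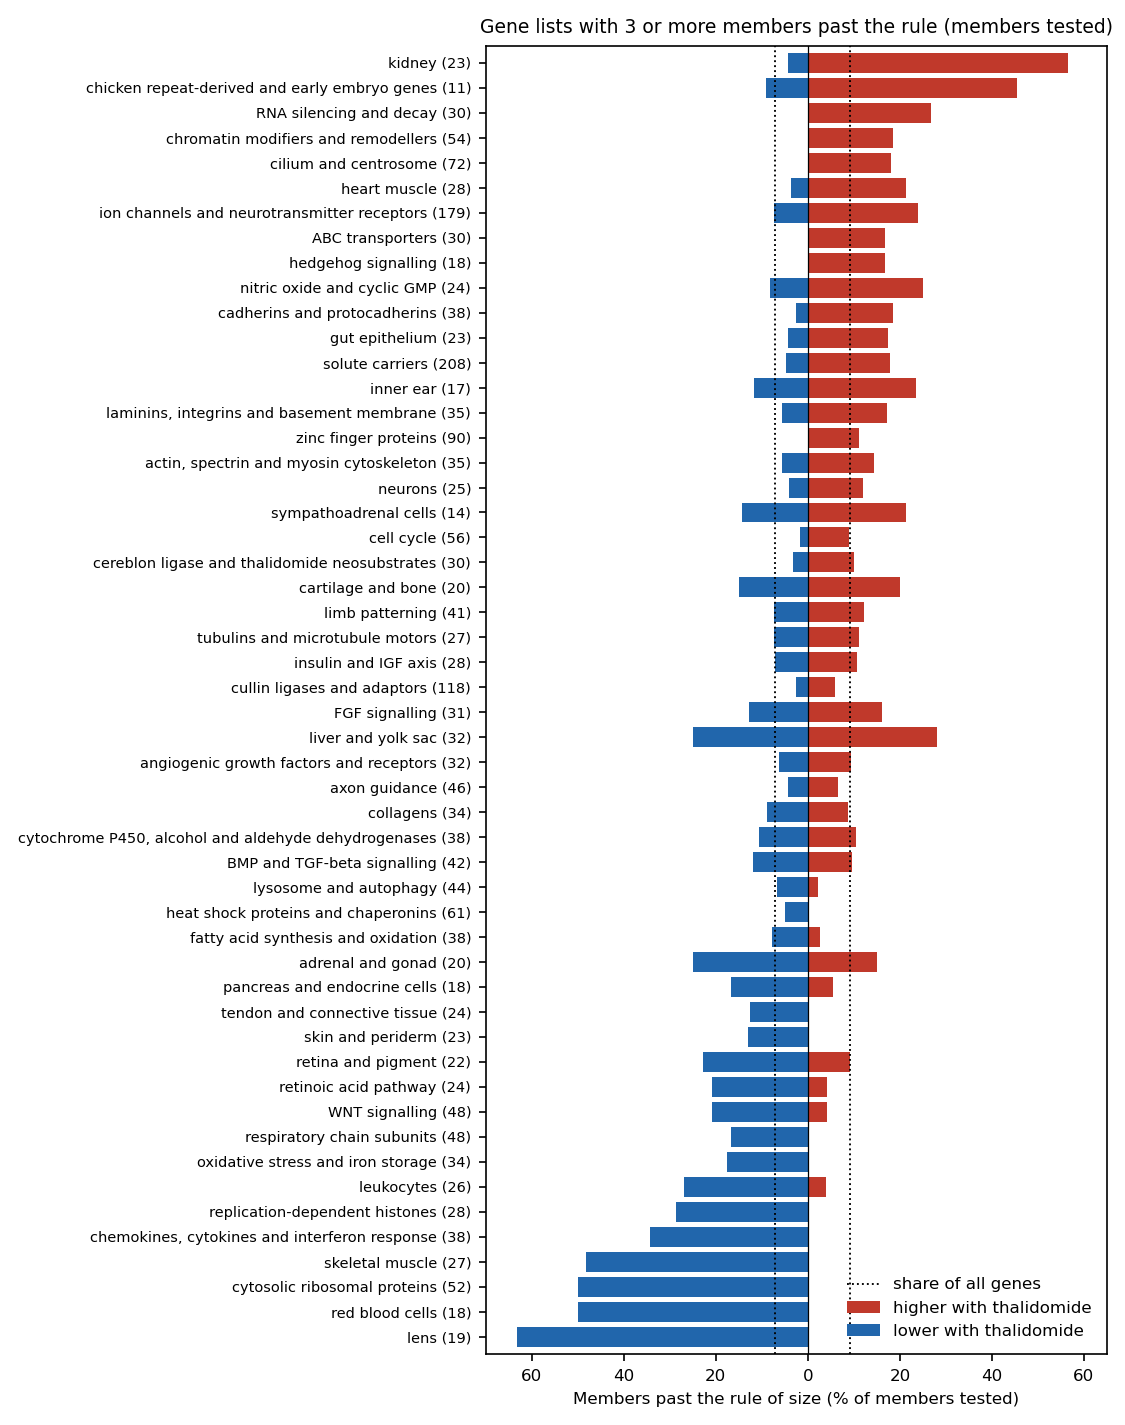
Share of the tested members of each list that were higher (red, to the right) or lower (blue, to the left) in the thalidomide library, in percent, for lists with at least 3 members past the rule in a direction; the number of members tested is in parentheses and dotted lines mark the shares of all genes, 9.22% higher and 7.23% lower. Kidney stands at the top with 13 of 23 higher and lens at the bottom with 12 of 19 lower.

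Lens genes were the list with the largest share of members lower. In the lens list 12 of 19 genes were lower and 0 higher, with a median log2 ratio of -1.92. CRYAA, the alpha crystallin, had 11.4 CPM in the thalidomide library, against 112 CPM in the control library (log2 -3.30, -3.4 to -3.19). ASL1, the delta crystallin of birds, had 596 CPM in the thalidomide library, against 3514 CPM in the control library (log2 -2.56, -2.57 to -2.54). The beta crystallin genes CRYBA2, CRYBA4, CRYBB3, CRYBB1 and CRYBA1 lay between log2 -2.52 and -2.19. BFSP1, a lens filament protein, was at -2.18, and FOXE3, a transcription factor of lens epithelium, at -1.83. With spermine NONOate present 1 of 19 lens genes was lower and 1 higher, at a median of -0.49, and CRYAA had 38.0 CPM in the combination library, against 64.3 CPM in the spermine NONOate library, short of the rule. In RNA from whole embryos, fewer cells of a type and less RNA per cell cannot be told apart.

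Retina and pigment genes were mixed, with 5 of 22 lower and 2 higher. TSPAN10, a tetraspanin of pigment cells, had 0.241 CPM in the thalidomide library, against 2.56 CPM in the control library (log2 -3.37, -4.22 to -2.69), and 0.193 CPM in the combination library, against 1.15 CPM in the spermine NONOate library. It was the one retina and pigment gene lower in both pairs. RLBP1, which binds retinaldehyde in glia and pigment epithelium, was at -1.50, ATOH7, the transcription factor of retinal ganglion cell precursors, at -1.49, OTX2 at -1.37 and SIX6 at -1.13, the last lost with total counts. RPE65, the retinoid isomerase of pigment epithelium, was higher at 1.88, as was OPN5, an opsin, at 1.25.

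The retinoic acid list had 5 of 24 genes lower and 1 higher (3 higher and 4 lower with total counts), at a median of -0.15 (0.05 with total counts). ALDH6, the retinaldehyde dehydrogenase also called ALDH1A3, had 86.1 CPM in the thalidomide library, against 447 CPM in the control library (log2 -2.38, -2.42 to -2.34), and 150.1 CPM in the combination library, against 369.8 CPM in the spermine NONOate library. It was lower in both pairs, as was RBP4, the retinol carrier of plasma, at -2.07 and -1.93. RBP3, the retinoid carrier between photoreceptors and pigment epithelium, had 23 reads in the thalidomide library and 316 in the control library (log2 -3.70, -4.41 to -3.12). RXRG, a retinoid receptor, was at -1.60, and CYP26C1, an enzyme that breaks down retinoic acid, was higher at 1.22 (0.91 to 1.55).

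Inner ear genes were called in both directions, more of them higher. OC90, the matrix protein of otoconia, had 1.89 CPM in the thalidomide library, against 17.1 CPM in the control library (log2 -3.18, -3.45 to -2.93), and 5.06 CPM in the combination library, against 31.9 CPM in the spermine NONOate library. GFI1, a transcription factor of hair cells and blood cells, was at -1.26. OTOG, a protein of the membranes above the sensory cells, was higher, with 20.3 CPM in the thalidomide library, against 3.21 CPM in the control library (log2 2.66, 2.46 to 2.87), and 9.19 CPM in the combination library, against 4.97 CPM in the spermine NONOate library. Its relative OTOGL, the scaffold protein USH1C and the motor protein MYO7A of the hair bundle were higher by 1.87, 1.41 and 1.31. MYO7A was higher in the other pair as well (1.10). In all 4 of 17 were higher and 2 lower, at a median of 0.66, with 13 above 0 and 4 below. In the pair with spermine NONOate 2 were higher and 2 lower, at a median of 0.50.

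Limb patterning genes were called near the rates of all genes, with 5 of 41 higher and 3 lower. SHH, the morphogen of the posterior limb margin, neural tube and notochord, had 24.2 CPM in the thalidomide library, against 6.75 CPM in the control library (log2 1.84, 1.70 to 1.99), and 18.9 CPM in the combination library, against 14.1 CPM in the spermine NONOate library. FGF8, the growth factor of the apical ridge and other signalling centres, had 3.26 CPM in the thalidomide library, against 1.10 CPM in the control library (log2 1.57, 1.20 to 1.96), and 2.82 CPM in the combination library, against 2.14 CPM in the spermine NONOate library. GLI3, the hedgehog effector and repressor, had 86.5 CPM in the thalidomide library, against 38.1 CPM in the control library (log2 1.18, 1.12 to 1.25), and 94.7 CPM in the combination library, against 21.9 CPM in the spermine NONOate library. Of these 3, GLI3 was higher in both pairs, and SHH and FGF8 had their lowest value in the control library.

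Lower in the thalidomide library were FGF4, another ridge factor, with 10 reads in the thalidomide library and 29 in the control library (log2 -1.44, -2.69 to -0.41), HOXD12, a homeobox gene of the distal limb, at -1.24 (-1.35 to -1.13), and GHOX-7, the chicken MSX1, at -1.05 (-1.11 to -0.98), a call lost with total counts. HOXD12 had 13.4 CPM in the thalidomide library, against 31.7 CPM in the control library, and 17.3 CPM in the combination library, against 16.5 CPM in the spermine NONOate library. Both GHOX-7 and HOXD12 were highest in the control library. HOXD12 was the one of 15 Hox genes tested that was called. The hedgehog list had 3 of 18 higher, 0 lower and 16 above 0, and SCUBE1, a secreted protein of the family that helps release hedgehog ligands, had 61 CPM in the thalidomide library, against 8.63 CPM in the control library (log2 2.82, 2.70 to 2.95), and 47.3 CPM in the combination library, against 10.0 CPM in the spermine NONOate library.

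The genes of the cereblon ligase itself were short of the rule, though CUL4B was past it with total counts. CRBN, which encodes cereblon, had 25.5 CPM in the thalidomide library, against 19.4 CPM in the control library (log2 0.40, 0.29 to 0.50), and 25.2 CPM in the combination library, against 17.1 CPM in the spermine NONOate library. DDB1, the adaptor that joins cereblon to the cullin, was at -0.03, CUL4A at 0.41, CUL4B at 0.92 (0.89 to 0.96) and RBX1, the ring finger subunit, at -0.83 (-0.88 to -0.78). COPS5 and COPS2 of the signalosome were at -0.28 and 0.06, and CAND1, the cullin exchange factor, at 0.11.

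Of the proteins that cereblon is known to recruit with thalidomide or its relatives, the mRNAs of 3 were higher and that of 1 was lower. SALL4, a zinc finger transcription factor of limb and stem cells, had 31.9 CPM in the thalidomide library, against 12.7 CPM in the control library (log2 1.32, 1.21 to 1.44), and 21.4 CPM in the combination library, against 11.4 CPM in the spermine NONOate library. SALL1, its paralog, was at 1.15 (1.10 to 1.20), and SALL3, also a paralog, at 0.70, short of the rule, and 1.68 with spermine NONOate present. IKZF2, a zinc finger factor of lymphocytes and ear, had 6.58 CPM in the thalidomide library, against 2.67 CPM in the control library (log2 1.30, 1.05 to 1.55), and 6.53 CPM in the combination library, against 1.84 CPM in the spermine NONOate library, and was the one member higher in both pairs. TP63, the transcription factor of squamous epithelium, had 14.4 CPM in the thalidomide library, against 30.0 CPM in the control library (log2 -1.06, -1.17 to -0.95), a call lost with total counts. The 16.2 CPM of the combination library and 14.5 CPM of the spermine NONOate library lay near the thalidomide value.

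Other recruited proteins had ratios short of the rule. IKZF1 was at 0.05 with an interval of -0.34 to 0.44 that includes 0, IKZF5 at 0.53, ZNF692 at -0.65, ZFP91 at -0.13, CSNK1A1, a casein kinase, at -0.10, GSPT1, a translation termination factor, at 0.12, and RAB28 at -0.31. ZNF276 was at -0.02, ZNF827 at 0.95, ARID2 at 0.51, E4F1 at 0.25 and RNF166 at -0.53. MEIS2 and GLUL, which cereblon binds in the absence of drug, were at 0.18 and -0.46, and the potassium channel KCNMA1, also a partner, at 0.60. DDB2 was at -0.12 and UBE2D3, a conjugating enzyme, at -0.70. The whole list had 3 of 30 members higher and 1 lower, near the rates of all genes, and 5 higher and 0 lower with total counts, where CUL4B and ZNF827 were past the rule. Of 118 cullin ligase genes and adaptors 7 were higher, such as BTBD8 at 2.21 and BTBD9 at 1.43, and 3 lower. Both shares, 5.93% and 2.54%, were below those of all genes.

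The WNT genes called lower were ligands, secreted antagonists and the transcription factor LEF-1. In that list 10 of 48 were lower and 2 higher, and 5 were lower with total counts. In the pair with spermine NONOate 1 of 48 was lower and 4 higher, at a median of 0.30. Both pairs had 1 lower. SFRP2, a secreted WNT antagonist, had 120.3 CPM in the thalidomide library, against 419 CPM in the control library (log2 -1.80, -1.84 to -1.77), and 214 CPM in the combination library, against 365 CPM in the spermine NONOate library. SFRP4, a relative, had 2.75 CPM in the thalidomide library, against 10.8 CPM in the control library (log2 -1.98, -2.21 to -1.75), and was lower in the other pair too (-1.47). The ligands WNT6, WNT10A and WNT2 were at -1.53, -1.47 and -1.43, while WNT11, WNT16 and WNT4 lay between -1.10 and -1.02. LEF-1 and the antagonist WIF1 were at -1.02 and -1.0. These 5 calls are lost with total counts. LRP6, the coreceptor, was higher at 1.80, and so was WNT8B at 1.30.

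In BMP and TGF-beta signalling the genes called higher were receptors, and those called lower included secreted antagonists. BMPR1A, BMPR1B, BRK-3 (the chicken BMPR2) and ACVR2B had log2 ratios of 1.10, 1.19, 1.29 and 1.51. BRK-3 had 133 CPM in the thalidomide library, against 54.6 CPM in the control library, and 145 CPM in the combination library, against 43.7 CPM in the spermine NONOate library. NOG, the secreted antagonist noggin, had 2.75 CPM in the thalidomide library, against 13.3 CPM in the control library (log2 -2.27, -2.51 to -2.05), and 5.88 CPM in the combination library, against 10.9 CPM in the spermine NONOate library, short of the rule. NBL1, also an antagonist, was at -1.16, a call lost with total counts, the inhibitor ID4 at -1.27 and the activin subunit INHBA at -1.25. Of 42 members 4 were higher and 5 lower, and 3 and 0 were so in both pairs. The share higher, 9.52%, was near the 9.22% of all genes, and 11.9% were lower, against 7.23%. The median was -0.09 (0.10 with total counts).

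In FGF signalling most ligands called were lower. Besides FGF4, the ligands FGF20, FGF19 and FGF1 were lower, at log2 ratios of -2.49, -1.38 and -1.23, and FGF8 was the one ligand higher. The receptor FGFR3 had 93.7 CPM in the thalidomide library, against 44.6 CPM in the control library (log2 1.07, 1.01 to 1.13), and 123 CPM in the combination library, against 38.9 CPM in the spermine NONOate library. FRS2, the adaptor of FGF receptors, and FLRT2, a membrane protein that binds them, were at 1.49 and 1.36, and the coreceptor KL at 1.21. FGFR3, FRS2 and FLRT2 were higher in both pairs. Of 31 genes 5 were higher and 4 lower.

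Notch signalling had no gene called of 25, at a median of 0.34, and 1 with total counts. With spermine NONOate present 5 of 25 were higher and 0 lower, at a median of 0.57. In the axon guidance list 3 of 46 were higher (6 with total counts) and 2 lower, both shares below those of all genes. With spermine NONOate present 9 of 46 were higher and 0 lower. Higher without it were, among others, the semaphorin receptor PLXNB1 at 1.76 and the netrin receptor UNC5C at 1.48. PLXNB1 had 48.8 CPM in the thalidomide library, against 14.4 CPM in the control library, and 53.6 CPM in the combination library, against 9.90 CPM in the spermine NONOate library. In the insulin and IGF list 3 of 28 were higher and 2 lower (5 and 0 with total counts), near the rates of all genes. The receptor IGF1R was at 1.12, the kinase subunit PIK3CA at 1.16 and the growth hormone receptor GHR at 1.05, while the binding proteins IGFBP5 and IGFBP7 were lower at -1.07 and -1.06, calls lost with total counts. With spermine NONOate present IGF1R, PIK3CA and GHR were at 1.56, 0.93 and -0.45.

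Genes of nitric oxide and cyclic GMP, the pathway that the donor feeds, had 6 members higher and 2 lower of 24. GUCY1A2, a subunit of soluble guanylate cyclase, had 11.4 CPM in the thalidomide library, against 3.11 CPM in the control library (log2 1.86, 1.65 to 2.09), and 13.8 CPM in the combination library, against 2.11 CPM in the spermine NONOate library. NOS2, the inducible nitric oxide synthase, had 45.3 CPM in the thalidomide library, against 20.2 CPM in the control library (log2 1.17, 1.08 to 1.26), and 33.6 CPM in the combination library, against 28.7 CPM in the spermine NONOate library. SLC7A2, which carries arginine, was at 1.37, the phosphodiesterases PDE5A and PDE3A at 1.05 and 1.01, and PRKG2, a cyclic GMP dependent kinase, at 1.09. ASS1, an enzyme that regenerates arginine, was lower at -1.37, as was PDE6G at -1.42. PDE5A, PDE3A and GUCY1A2 were higher in both pairs, and NOS2 was short of the rule in the other pair.

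Angiogenic factors and receptors had 3 of 32 higher and 2 lower, near the rates of all genes (4 and 2 with total counts). The higher ones were HGF/SF, the ligand of the MET receptor, at 1.32, THBS1, an inhibitor of vessel growth, at 1.03, and CALCRL, the adrenomedullin receptor, at 1.05. ADM, the ligand of CALCRL, was lower at -1.28, and RAMP1, a partner of that receptor, at -1.58. Endothelial markers had 0 of 16 higher and 1 lower (2 higher with total counts), and smooth muscle and pericyte markers 0 of 15 higher and 1 lower (2 higher with total counts). With spermine NONOate present 7 of 15 smooth muscle and pericyte markers were higher and 0 lower, at a median of 0.77. In that pair 2 of 16 endothelial markers were higher and 1 lower, and 9.84% of all genes were higher.

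Kidney genes were the list with the largest share of members higher. There 13 of 23 were higher and 1 lower, at a median of 1.04, and 7 of 23 were higher with spermine NONOate present, all 7 of them shared. PAX2, a regulator of kidney, eye and ear, had 10.0 CPM in the thalidomide library, against 2.43 CPM in the control library (log2 2.04, 1.80 to 2.29), and 11.9 CPM in the combination library, against 6.41 CPM in the spermine NONOate library. WT1 of the podocytes was at 1.04 (0.90 to 1.17) and PODXL, a podocyte surface protein, at 1.37. WT1 was at -0.12 with spermine NONOate present.

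Transporters of the kidney tubule were among them. SLC12A1, the sodium potassium chloride carrier of the thick ascending limb, had 14.6 CPM in the thalidomide library, against 2.26 CPM in the control library (log2 2.69, 2.46 to 2.94), and 15.4 CPM in the combination library, against 7.51 CPM in the spermine NONOate library. SLC12A3, the sodium chloride carrier of the distal tubule, was at 1.94, and SLC5A1, a sodium glucose carrier, at 1.71. CLDN16, a claudin of tight junctions, had 54 reads in the thalidomide library and 0 in the control library, at least 18.6-fold higher against the floor of 3 counts, and 27 in the combination library and 1 in the spermine NONOate library. For PAX2 and SLC12A1 the control library was lowest of the 4, and the spermine NONOate library lay between it and the thalidomide libraries.

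Carriers and channels at large were more often higher than lower. Of 208 solute carriers 37 were higher and 10 lower (56 higher and 6 lower with total counts), shares that were not matched for level. Amino acid carriers were among the higher ones, SLC7A9 with 5.70 CPM in the thalidomide library, against 0.823 CPM in the control library (log2 2.78, 2.40 to 3.21), and SLC7A13 with 5.13 CPM in the thalidomide library, against 0.796 CPM in the control library (log2 2.68, 2.29 to 3.12). SLC7A13 was higher still in the spermine NONOate library (9.79 CPM). Sodium coupled SLC5A12 and SLC5A11 were at 2.64 and 2.5. Lower were SLC15A2, a peptide carrier, at -1.25 and the organic anion carriers SLCO1A2 and SLCO2A1 at -1.98 and -1.13, the last lost with total counts. Among ABC transporters 5 of 30 were higher (9 with total counts) and 0 lower, including ABCB11, the bile salt export pump, with 15.6 CPM in the thalidomide library, against 5.47 CPM in the control library (log2 1.51, 1.34 to 1.68).

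Liver and yolk sac genes were called in both directions. Of 32 genes 9 were higher and 8 lower, at a median of -0.10 (0.10 with total counts). Among the lower members ALB, serum albumin, had 12.9 CPM in the thalidomide library, against 64.8 CPM in the control library (log2 -2.33, -2.43 to -2.23), and 154 CPM in the combination library, against 619.7 CPM in the spermine NONOate library. FETUB, a fetuin, had 2.85 CPM in the thalidomide library, against 18.3 CPM in the control library (log2 -2.68, -2.91 to -2.47), and 27.0 CPM in the combination library, against 132 CPM in the spermine NONOate library. GC, the vitamin D binding protein, was at -2.28, AMBP at -1.88, AHSG at -1.81 and the fibrinogen chain FGB at -1.09, the last lost with total counts. For ALB and FETUB the combination library lay above the control library, and the spermine NONOate library was the highest of the 4.

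Among the higher members LRP2, the endocytic receptor megalin of yolk sac and kidney, had 128 CPM in the thalidomide library, against 22.5 CPM in the control library (log2 2.51, 2.43 to 2.58), and 128 CPM in the combination library, against 56.7 CPM in the spermine NONOate library. CUBN, its partner cubilin, was at 1.49. The transcription factor HNF4A was at 2.5, MTTP, which loads lipid onto lipoproteins, at 1.91, and KNG1, kininogen, at 1.03. All 8 lower genes, and 3 of the 9 higher genes, were called the same way with spermine NONOate present. In gut epithelium 4 of 23 were higher. Apart from MUC4 these were CDHR5, a brush border cadherin, at 3.29 (1.98 to 5.38), HNF4G at 2.39 (1.91 to 2.93) and ISX, a homeobox gene, at 1.15 (0.05 to 2.43), the last on 22 and 10 reads. VIL1, the brush border protein villin, was lower at -1.62.

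Of the cytochrome P450, alcohol and aldehyde dehydrogenase genes 4 of 38 were higher and 4 lower (7 higher and 4 lower with total counts). Each share was 10.5%, against 9.22% higher and 7.23% lower of all genes. CYP2H1, a drug-inducible enzyme of chick liver, had 7.02 CPM in the thalidomide library, against 1.67 CPM in the control library (log2 2.06, 1.78 to 2.37), and 8.94 CPM in the combination library, against 6.00 CPM in the spermine NONOate library. CYP1A4, induced by aryl hydrocarbons in chick, had 1.09 CPM in the thalidomide library, against 2.85 CPM in the control library (log2 -1.38, -1.78 to -1.0), and 5.84 CPM in the combination library, against 11.5 CPM in the spermine NONOate library. CYP7A1, the rate-limiting enzyme of bile acid synthesis, had 34 reads in the thalidomide library and 9 in the control library (log2 1.91, 0.87 to 3.21). The spermine NONOate library exceeded the control library in all 3.

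Several steroidogenic genes were lower. CYP11A1, which makes pregnenolone from cholesterol, had 0.694 CPM in the thalidomide library, against 4.88 CPM in the control library (log2 -2.80, -3.28 to -2.38), and 1.53 CPM in the combination library, against 3.17 CPM in the spermine NONOate library. CYP17A1, the next enzyme towards cortisol and sex steroids, had 0.680 CPM in the thalidomide library, against 2.56 CPM in the control library (log2 -1.90, -2.40 to -1.45), and HSD3B1 was at -1.11, a call lost with total counts. NR0B1, a nuclear receptor of adrenal and gonad, was at -1.33. CYP11A1 was lower in both pairs. The adrenal and gonad list had 5 of 20 lower and 3 higher. The higher ones were WT1, GATA4 and TDRD1, a germ cell protein, at 1.03. With spermine NONOate present WT1, GATA4 and TDRD1 were at -0.12, 0.99 and -0.70, short of the rule.

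The sympathoadrenal list had 3 of 14 higher and 2 lower. TH, the rate-limiting enzyme of catecholamine synthesis, had 4.29 CPM in the thalidomide library, against 1.76 CPM in the control library (log2 1.29, 0.99 to 1.60), and DDC, the next enzyme, was at 1.52. With spermine NONOate present TH and DDC were at 0.75 and -0.24, and the control library was the lowest of the 4 for DDC. GFRA3, a receptor of the GDNF family, had 6.12 CPM in the thalidomide library, against 1.63 CPM in the control library (log2 1.90, 1.61 to 2.21), and 16 CPM in the combination library, against 7.5 CPM in the spermine NONOate library. SLC18A2, the vesicular monoamine carrier, was lower at -1.13, and the transcription factor GATA3 at -1.03, both lost with total counts. In the pancreas and endocrine list 3 of 18 were lower and 1 higher (2 and 3 with total counts). The lower ones were somatostatin (SST) with 7.82 CPM in the thalidomide library, against 24.7 CPM in the control library (log2 -1.66, -1.80 to -1.52), NEUROD1 at -1.61 and MNX1 at -1.08, the last lost with total counts. PRSS3, a trypsinogen gene, was higher, with 43 reads in the thalidomide library and 1 in the control library (log2 4.91, 2.92 to 10.81). In the pituitary and hypothalamus list the transcription factor PIT1 was lower at -2.27 and the neuropeptide NPY at -1.61, and the homeobox gene HESX1 and the receptor GHRHR were higher at 1.02 and 1.43.

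The largest loss in level of a single gene was that of HBG2, a red cell gene. In the red blood cell list 9 of 18 genes were lower and 0 higher, at a median of -1.14, and 6 were lower in both pairs. HBAA, an alpha-type haemoglobin, had 987 CPM in the thalidomide library, against 9298 CPM in the control library, and 1924 CPM in the combination library, against 9441 CPM in the spermine NONOate library. HBAD, also of alpha type, had 476 CPM in the thalidomide library, against 4318 CPM in the control library, and 929 CPM in the combination library, against 4089.8 CPM in the spermine NONOate library. HBG2, annotated as a beta-type haemoglobin, had 1450.2 CPM in the thalidomide library, against 10076 CPM in the control library (log2 -2.80, -2.81 to -2.79), and 2963 CPM in the combination library, against 9140.1 CPM in the spermine NONOate library. HBE was at -1.90, and at -0.50 with spermine NONOate present, short of the rule. HBZ, the embryonic zeta chain, had a log2 ratio of 0.10, but was higher with spermine NONOate present, at 1.01. Copies of haemoglobin genes can share reads, so single members are uncertain. The membrane skeleton genes EPB42 and SPTB were at -2.04 and -1.89, the blood group protein KEL at -1.49 and UROD of haem synthesis at -1.43.

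Leukocyte genes were lower in 7 of 26 cases, and in 3 with total counts. MPO was the one higher. SPI1, the transcription factor PU.1 of myeloid cells, had 5.83 CPM in the thalidomide library, against 13.8 CPM in the control library (log2 -1.24, -1.41 to -1.08), and 5.58 CPM in the combination library, against 11.4 CPM in the spermine NONOate library. NCF4, a subunit of the phagocyte oxidase, was at -1.18, and the kinase BTK at -1.06. The calls of NCF4 and BTK are lost with total counts. MARCO, a scavenger receptor of macrophages, had 2.51 CPM in the thalidomide library, against 7.23 CPM in the control library (log2 -1.52, -1.78 to -1.28), and 2.59 CPM in the combination library, against 2.13 CPM in the spermine NONOate library, so that the control library stood above the 3 others.

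Chemokine, cytokine and interferon response genes were lower in 13 of 38 cases and higher in 0 (2 with total counts), at a median of -0.62. The 13 include DMB2 and BF2, which are described below with the histocompatibility genes. In the pair with spermine NONOate 4 of 38 were lower and 0 higher, at a median of -0.29. Both pairs had 3 lower. The chemokines CCLI10 and CCLI7 were lower in both pairs. CCLI10 had 0.652 CPM in the thalidomide library, against 16.3 CPM in the control library (log2 -4.63, -5.10 to -4.22), and 0.915 CPM in the combination library, against 9.74 CPM in the spermine NONOate library. CCLI7 had 0.553 CPM in the thalidomide library, against 5.54 CPM in the control library (log2 -3.31, -3.84 to -2.85), and 0.902 CPM in the combination library, against 3.41 CPM in the spermine NONOate library. SOCS1 and SOCS3, feedback inhibitors of cytokine signalling, were at -1.33 and -1.24, JSC, the chicken CXCL14, at -1.19 and IL15 at -1.11, the last 2 lost with total counts.

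The major histocompatibility complex lies on chromosome 16 in chicken, and several of its genes were lower in the thalidomide library. DMB2, a chain of the class II loading factor, had 2.15 CPM in the thalidomide library, against 30.1 CPM in the control library (log2 -3.80, -4.05 to -3.57), and 14.8 CPM in the combination library, against 8.44 CPM in the spermine NONOate library. BF2, a class I heavy chain, had 1.35 CPM in the thalidomide library, against 11.8 CPM in the control library (log2 -3.13, -3.45 to -2.83), and 8.16 CPM in the combination library, against 10.0 CPM in the spermine NONOate library. B-F, also of class I, was at -1.95, the class II chain BLB1 at -1.20, the peptide transporters TAP2 and TAP1 at -3.20 and -1.49, and TPN, tapasin, at -1.79. For BF2, TAP1, TAP2 and B-F the thalidomide library was the lowest of the 4 and the combination did not differ from spermine NONOate by the rule. Of 52 genes tested on chromosome 16, 14 (26.9%) were lower and 7 higher. B-G and B-NK were among the higher ones, at 1.83 and 2.61. Genes of this family are similar in sequence and can share reads.

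Skeletal muscle genes that were called were all lower. In the list 13 of 27 were lower, 10 with total counts, at a median of -0.83. With spermine NONOate present 4 of 27 were lower and 2 higher, at -0.33. The regulators MYOD1 and MYF6 were at -1.50 and -1.58. MYL1, a fast myosin light chain, had 71.3 CPM in the thalidomide library, against 321 CPM in the control library (log2 -2.17, -2.21 to -2.13), and 123 CPM in the combination library, against 230.5 CPM in the spermine NONOate library. TNNI2, the fast troponin I, had 18.9 CPM in the thalidomide library, against 86.9 CPM in the control library (log2 -2.20, -2.29 to -2.12), and 29.6 CPM in the combination library, against 68.4 CPM in the spermine NONOate library. CACNG1, the gamma subunit of the muscle calcium channel, was at -2.93 and CAV3, the caveolin of muscle, at -2.31. CHRND, a subunit of the muscle acetylcholine receptor, was at -1.60, myoglobin (MB) at -2.10 and MYH3, an embryonic myosin heavy chain, at -1.14, the last lost with total counts. CHRND was at 0.42 with spermine NONOate present, short of the rule.

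In heart muscle 6 of 28 genes were higher and 1 lower (7 and 1 with total counts). The median log2 ratio was -0.09 (0.11 with total counts), with 13 members above 0 and 15 below. GATA4, a cardiac and endodermal transcription factor, had 8.84 CPM in the thalidomide library, against 2.11 CPM in the control library (log2 2.06, 1.81 to 2.33), and 7.42 CPM in the combination library, against 3.72 CPM in the spermine NONOate library. CACNA1C, the pore of the cardiac calcium channel, had 28.3 CPM in the thalidomide library, against 8.45 CPM in the control library (log2 1.74, 1.61 to 1.88), and 25.5 CPM in the combination library, against 8.63 CPM in the spermine NONOate library. RYR2, the calcium release channel, was at 1.07 (0.95 to 1.20), MYH15 at 1.06 (1.03 to 1.09), TBX20 at 1.07 and the pacemaker channel HCN4 at 1.17. ACTC1, cardiac alpha actin, which embryonic skeletal muscle also makes, was lower at -1.46. Of these CACNA1C and TBX20 were higher in both pairs.

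Cartilage and bone genes were higher in 4 of 20 cases and lower in 3. ACAN, the cartilage proteoglycan aggrecan, had 84.4 CPM in the thalidomide library, against 38.7 CPM in the control library (log2 1.13, 1.06 to 1.19), and 116 CPM in the combination library, against 48.1 CPM in the spermine NONOate library. SOX6, a chondrocyte transcription factor, was at 1.41 and PTH1R, the parathyroid hormone receptor, at 1.22. EPYC, a small cartilage proteoglycan, had 4.97 CPM in the thalidomide library, against 17.7 CPM in the control library (log2 -1.83, -2.0 to -1.66), and 9.24 CPM in the combination library, against 19.99 CPM in the spermine NONOate library. MATN3, a cartilage matrix protein, was at -1.44. IBSP, bone sialoprotein, had 0 reads in the thalidomide library and 48 in the control library, at least 15.5-fold lower against the floor of 3 counts, and 6 reads in the combination library and 43 in the spermine NONOate library. SPP1, osteopontin, was higher at 1.32, with its lowest value in the control library. ACAN, SOX6 and PTH1R were higher, and EPYC, MATN3 and IBSP lower, in both pairs.

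Tendon and connective tissue had 3 of 24 genes lower and 0 higher. Besides TNMD these were CDERMO-1, the dermal transcription factor TWIST2, at -1.24, and COL1A2, a chain of type I collagen, with 1721 CPM in the thalidomide library, against 3763 CPM in the control library (log2 -1.13, -1.14 to -1.12), and 2584 CPM in the combination library, against 2784 CPM in the spermine NONOate library. The call of COL1A2 is lost with total counts. Of 34 collagen genes 3 were higher and 3 lower (7 higher and 2 lower with total counts), near the rates of all genes. COL15A1, of basement membrane zones, had 31.6 CPM in the thalidomide library, against 7.60 CPM in the control library (log2 2.05, 1.92 to 2.19), and 28.3 CPM in the combination library, against 8.72 CPM in the spermine NONOate library. COL17A1, of hemidesmosomes in skin, had 54.8 CPM in the thalidomide library, against 152 CPM in the control library (log2 -1.47, -1.52 to -1.42), and 80.4 CPM in the combination library, against 74.8 CPM in the spermine NONOate library. In skin and periderm 3 of 23 were lower and 0 higher (1 and 1 with total counts). The lower ones were UPK3A, TP63 and EDAR, the last 2 lost with total counts. For COL17A1, TP63 and EDAR the control library was highest of the 4.

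Adhesion and basement membrane genes were more often higher. Of 35 laminin, integrin and basement membrane genes 6 were higher and 2 lower (8 higher and 1 lower with total counts), and of 38 cadherin genes 7 were higher and 1 lower (9 higher and 0 lower with total counts). FREM2, a basement membrane protein needed for eyelid, digit and kidney formation in mouse, had 83.3 CPM in the thalidomide library, against 37.6 CPM in the control library (log2 1.14, 1.08 to 1.21), and 94.5 CPM in the combination library, against 23.8 CPM in the spermine NONOate library. The large protocadherin FAT3 had 153 CPM in the thalidomide library, against 50.8 CPM in the control library (log2 1.59, 1.54 to 1.65), and 185 CPM in the combination library, against 39.3 CPM in the spermine NONOate library, and FAT4 and FAT1 were at 1.19 and 1.04. FREM2, FAT1, FAT3 and FAT4 were higher in both pairs.

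Neuronal markers had 3 of 25 members higher (5 with total counts) and 1 lower. DCX, a microtubule protein of migrating neurons, had 205 CPM in the thalidomide library, against 67.4 CPM in the control library (log2 1.60, 1.56 to 1.65), and 253 CPM in the combination library, against 55.0 CPM in the spermine NONOate library. SCN2A, a sodium channel, and SLC17A6, a vesicular glutamate carrier, were at 1.25 and 1.25, and at 0.03 and 0.72 with spermine NONOate present. Of 179 ion channel and transmitter receptor genes 43 were higher, or 61 with total counts, and 13 lower, at a median of 0.41. Both pairs had 17 of them higher. The 179 genes summed to 2170 CPM in the thalidomide library, against 1662 CPM in the control library. Their share was not matched for level, and 19% of the fifth of genes with the lowest mean level were higher.

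Among the channels GLRA1, a glycine receptor subunit, had 1.89 CPM in the thalidomide library, against 0.165 CPM in the control library (log2 3.46, 2.67 to 4.51), and 1.37 CPM in the combination library, against 0.266 CPM in the spermine NONOate library. SCN9A, a sodium channel of sensory neurons, was at 2.99 and TRPV6, an epithelial calcium channel, at 2.90. The lower ones included KCNMB4, a regulatory subunit of potassium channels, at -2.0 and KCNS1 at -1.76. Markers of glia and Schwann cells had 1 of 12 higher and 0 lower, and neural progenitors 1 of 22 higher (2 with total counts) and 0 lower. With spermine NONOate present 5 of 22 neural progenitor genes were higher and 0 lower, and 1 of 13 glia and Schwann cell genes higher and 1 lower.

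Cell machinery differed by complex. All 52 cytosolic ribosomal protein genes tested had a ratio below 1, at a median of -1.0 (-0.80 with total counts), and 26 were lower by the rule, 16 with total counts. They summed to 52136 CPM in the thalidomide library, against 104698 CPM in the control library, and to 49294 CPM in the combination library, against 98721 CPM in the spermine NONOate library. RPS27A, which also encodes ubiquitin, had 762 CPM in the thalidomide library, against 2210.0 CPM in the control library (log2 -1.54, -1.55 to -1.52), and RPLP1 of the stalk had 978 CPM in the thalidomide library, against 2742 CPM in the control library (log2 -1.49, -1.50 to -1.48). With spermine NONOate present 26 were lower at a median of -1.01, 15 of them the same genes. Pseudogene copies can take reads from these genes.

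Mitochondrial ribosome and respiratory chain genes lay below 1 in 55 of 57 and 46 of 48 cases. By the rule 1 and 8 were lower, at medians of -0.54 and -0.71, and 0 and 1 with total counts. These shares under TMM were 1.75% and 16.7%, against 7.23% of all genes. In the pair with spermine NONOate 8 and 17 were lower, at medians of -0.71 and -0.83. NDUFB2 of complex I had 47.9 CPM in the thalidomide library, against 123 CPM in the control library (log2 -1.36, -1.42 to -1.30), and 46.5 CPM in the combination library, against 114 CPM in the spermine NONOate library. NDUFA4 was at -1.17 and the ATP synthase subunit ATP5G3 at -1.05, both lost with total counts. The 28 replication-dependent histone genes tested all lay below 1, 8 of them by the rule (2 with total counts), and their copies can share reads. In the other pair 17 of 28 were lower.

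Of 34 oxidative stress and iron storage genes 6 were lower and 0 higher (5 and 0 with total counts). FTH1, a ferritin chain, had 766 CPM in the thalidomide library, against 1992 CPM in the control library (log2 -1.38, -1.39 to -1.36), and 1068 CPM in the combination library, against 2302 CPM in the spermine NONOate library. HMOX1, the inducible haem oxygenase, had 32.1 CPM in the thalidomide library, against 80.03 CPM in the control library (log2 -1.32, -1.39 to -1.25), and 29.2 CPM in the combination library, against 63.7 CPM in the spermine NONOate library, so both were lower in both pairs. GPX3, a glutathione peroxidase of plasma, was at -1.36 and GSTT1, a glutathione transferase, at -1.27. Of 61 heat shock and chaperonin genes 3 were lower and 0 higher (1 and 1 with total counts), and the share lower, 4.92%, was below that of all genes. The lower ones were the small heat shock genes HSPB8 at -2.07, HSPB1 at -1.02 and HSPB7 at -1.02, the last 2 lost with total counts. Cell death and p53 target genes had 1 of 34 lower and 0 higher (1 higher and 0 lower with total counts). None of the 19 cholesterol synthesis or 31 proteasome genes was called, though with total counts 1 proteasome gene was. With spermine NONOate present 3 proteasome genes were lower and 0 higher.

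Chromatin, RNA silencing and cilium genes were higher where they were called. Of 54 chromatin genes 10 were higher and 0 lower, at a median of 0.52, and with spermine NONOate present 21 were higher, 9 of them shared. TET1, which oxidises methylated cytosine, had 65.2 CPM in the thalidomide library, against 20.7 CPM in the control library (log2 1.65, 1.57 to 1.74), and 61.3 CPM in the combination library, against 14.1 CPM in the spermine NONOate library. The remodeller CHD9 had 239 CPM in the thalidomide library, against 82.5 CPM in the control library (log2 1.54, 1.49 to 1.58), and 203 CPM in the combination library, against 75.7 CPM in the spermine NONOate library. CHD7, mutated in a human syndrome of eye, ear and heart defects, was at 1.10 and ATRX at 1.19.

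In RNA silencing and decay 8 of 30 genes were higher, all 8 of them in both pairs, and 0 lower. DICER1, which cuts microRNA precursors, had 246 CPM in the thalidomide library, against 80.5 CPM in the control library (log2 1.61, 1.57 to 1.66), and 192 CPM in the combination library, against 66.7 CPM in the spermine NONOate library. EIF2C2, the Argonaute protein that carries microRNAs, had 27.8 CPM in the thalidomide library, against 8.31 CPM in the control library (log2 1.74, 1.61 to 1.88), and 28.7 CPM in the combination library, against 5.75 CPM in the spermine NONOate library. TNRC6B, the silencing partner of Argonaute, had 92.1 CPM in the thalidomide library, against 25.4 CPM in the control library (log2 1.86, 1.78 to 1.93), and 100.2 CPM in the combination library, against 18.0 CPM in the spermine NONOate library. Its relative TNRC6A was at 1.07, and XRN1, a nuclease of mRNA decay, at 1.16.

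LIN28B, which blocks let-7 maturation, had 18.3 CPM in the thalidomide library, against 4.50 CPM in the control library (log2 2.02, 1.85 to 2.21), and 12 CPM in the combination library, against 4.35 CPM in the spermine NONOate library. TRIM71, a let-7 target of stem cells, was at 1.38. Both thalidomide libraries exceeded both others in DICER1, EIF2C2, TNRC6B and LIN28B. Both LIN28B and TRIM71 also stand in the list of early embryo genes, where 5 of 11 were higher and 1 lower. The lower one was MIXL1, a homeobox gene of gastrulation, with 4 reads in the thalidomide library and 21 in the control library. Among 90 zinc finger genes 10 (11.1%) were higher, against 9.22% of all genes, and 0 lower. With total counts 17 were higher, where 1674 of all 12138 genes were. ZBTB20, a repressor of neural and liver genes, had 3.71 CPM in the thalidomide library, against 0.453 CPM in the control library (log2 3.02, 2.51 to 3.61), and 5.70 CPM in the combination library, against 0.415 CPM in the spermine NONOate library.

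Cilium and centrosome genes were higher in 13 of 72 cases (21 with total counts), 6 of the 13 in both pairs, and lower in 0. The axonemal dynein DNAH10 had 20.3 CPM in the thalidomide library, against 6.25 CPM in the control library (log2 1.70, 1.54 to 1.85), and 19.4 CPM in the combination library, against 6.68 CPM in the spermine NONOate library. CEP350 of the centrosome was at 1.60, CEP290 of the transition zone at 1.33 and TMEM67, a ciliary membrane protein, at 1.43. In the cell cycle list 5 of 56 (8.93%) were higher, near the 9.22% of all genes. Among them were the kinetochore genes CENPF at 1.28 and CENPE at 1.19. The 1 lower was E2F1 at -1.13, a call lost with total counts. Of 35 actin, spectrin and myosin cytoskeleton genes 5 were higher and 2 lower (7 and 1 with total counts). The higher ones were SYNE1 and SYNE2 of the nuclear envelope at 1.22 and 1.19, the dystrophin relative UTRN at 1.09, TLN2, a talin, at 1.09 and DST, a linker protein, at 1.07. The lower ones were TMSB10, a thymosin that binds actin, at -1.32 and ARPC4 of the complex that branches actin at -1.04.

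By level, and among genes with a symbol, the largest gain was that of DYNC1H1, the heavy chain of cytoplasmic dynein, with 2273 CPM in the thalidomide library, against 1148 CPM in the control library (log2 0.99, 0.97 to 1.0), and 2104 CPM in the combination library, against 1092 CPM in the spermine NONOate library. It was past the rule with total counts. SPTBN1, a spectrin, was at 0.67, HSP90AA1 at 0.41, HSP90B1 at 0.45, the remodeller CHD4 at 0.58 and MATR3 at 0.44, all short of the rule, and TPR of the nuclear pore at 1.03 was past it. Among genes with a symbol the largest losses besides haemoglobins and ASL1 were those of EEF1A, the translation elongation factor, with 12247 CPM in the thalidomide library, against 20763 CPM in the control library (log2 -0.76, -0.77 to -0.76), and GAPDH of glycolysis, with 4659 CPM in the thalidomide library, against 9191 CPM in the control library (log2 -0.98, -0.99 to -0.97). Both losses were short of 2-fold. The ribosomal genes RPS2, RPS3A and RPL4 were at -1.29, -1.25 and -1.01, the last lost with total counts. ENSGALG00000011324, which bears no symbol, had 3159 CPM in the thalidomide library, against 5959 CPM in the control library (log2 -0.92, -0.92 to -0.91), and 4677 CPM in the combination library, against 5363 CPM in the spermine NONOate library.

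Along the genome the ratio differed by chromosome. Genes on chromosomes 1 to 10 had a median log2 ratio of 0.04, with 10.1% higher and 6.79% lower, and genes on chromosomes 11 to 21 had a median of -0.13, with 6.81% higher and 8.39% lower. Chicken chromosomes are numbered roughly by falling size. The classes were drawn after the values were seen. In the combination against spermine NONOate the medians were 0.01 and 0.02, so the difference was not seen there. Chromosome 16 had the lowest median at -0.25 and chromosome 7 the highest at 0.12, and in the other pair chromosome 16 was at 0.09 and chromosome 7 at 0.05.

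**Figure D5:**
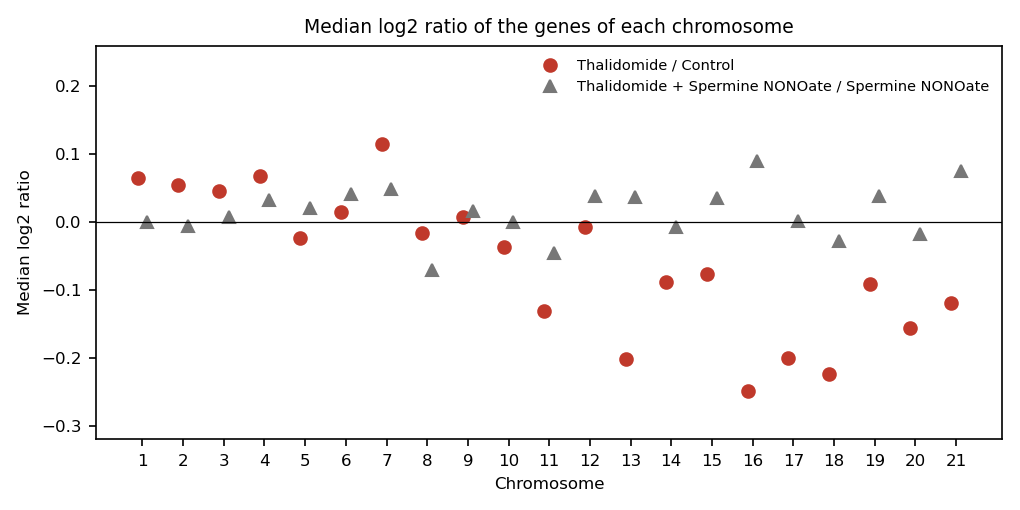
Median log2 ratio (vertical axis) of the tested genes on each of chromosomes 1 to 21 (horizontal axis), as red circles for thalidomide over control and grey triangles for the combination over spermine NONOate. Under TMM red circles lie below 0 on each chromosome from 11 to 21 and also on 5, 8 and 10. Grey triangles stay between -0.07 and 0.09 throughout.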

How the data were processed

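Whole-embryo RNA was measured in 4 libraries, 1 per treatment, and thalidomide was compared with control. Total RNA was extracted with Trizol and made into standard Illumina libraries, per the labels' protocols. TopHat2 2.0.8, DESeq and the galGal4 build are named in the submitters' processing notes, and Ensembl Release 75 is the annotation named by the file header. The authors deposited raw counts, 1 whole number of reads for each gene and library, on chromosomes 1 to 21, and genes elsewhere are not analysed here. No source used here names the counting tool or says if it read strand, so overlapping, antisense and near-identical genes can share reads.

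TMM factors came from all 4 libraries (edgeR 4.0.16, R 4.3.3): 1.05 for thalidomide, 0.92 for control, 1.07 for the combination and 0.96 for spermine NONOate. Ratios and exact intervals used scipy 1.17.1. DESeq2 1.42.0 size factors, total counts, upper quartile scaling, other read minimums, folds and added counts were tried as alternatives. A count of 0 was set to a floor of 3 counts in that library for lower bounds.

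Members and lists were chosen with earlier results of these data known, and no list is independent evidence. The lists hold 2294 names, of which 1509 were found by symbol and 48 by an older symbol through the NCBI RefSeq table of assembly GRCg7b, used for names alone; 1142 more came from family patterns. A symbol with several copies was taken as the copy with the most reads. The genes to name by rule were the 15 highest and 15 lowest by the bound nearest to no change (a symbol and 100 reads), up to 4 called members per list and direction with 3 or more, the 10 largest gains and losses in CPM, and the cereblon list. Other list members named in the text were chosen after their values were seen. Gene length and sequence were not used here. Results for some named genes are not reported here.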

Additional observations from a re-analysis of the deposited data

How the results depend on the processing

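No paired analysis was possible because each group has 1 library and no replicate number to pair. A fit of thalidomide plus spermine NONOate over all 4 libraries, which leaves 1 residual degree of freedom, was not run. Scaling to total counts gave 560 genes lower, 74.9% of called genes higher, 945 and 163 genes higher and lower in both thalidomide contrasts, and 19 lists with at least 3 members lower. Upper quartile scaling gave 1051 genes higher and 948 lower, so that 52.6% of called genes were higher. There 8 chromatin, 5 nitric oxide and cyclic GMP, 38 ion channel and receptor and 4 laminin, integrin and basement membrane genes were higher. Lower by that scaling were 29 cytosolic ribosomal protein genes. At 4-fold there were 207 genes higher, 140 lower, 59.7% of calls higher, 55 and 31 in both contrasts, and 6 and 7 lists with at least 3 members higher and lower. At 1.5-fold there were 2461 higher, 2289 lower, 51.8% of calls higher, 1581 and 1063 in both contrasts, and 57 lists with at least 3 members lower. The 1.5-fold and 4-fold counts follow from the rule itself, and the cause of the differences between scalings was not tested. With DESeq2 size factors there were 1144 genes higher and 871 lower, with 100 reads as the minimum 891 and 716, with no minimum 1224 and 929, and with 5 reads added 1079 and 825. None of the named genes past the rule changed direction. Some list medians near 0 changed sign with total counts, such as FGF signalling (-0.10 to 0.10), WNT signalling (-0.05 to 0.15) and heart muscle (-0.09 to 0.11). Of 236 named genes past the rule, total counts kept 214 and upper quartile scaling 232. The 4 calls lost with the upper quartile were of higher genes, THBS1, TDRD1 and TPR among them. Scaling to total counts or to the upper quartile moves all list medians by one amount. Depth limits genes of few reads, and the number of libraries limits all else.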

Other observations

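Calls in opposite directions in the thalidomide contrast without and with spermine NONOate were made for 12 genes higher and 8 lower in the thalidomide library against control. They were picked out after their values were seen, and 5 bear a symbol. TM4SF4, a tetraspanin relative of liver and gut, had 121 reads in the thalidomide library and 60 in the control library, and 163 in the combination library and 575 in the spermine NONOate library. ARR3, the arrestin of cones, had 54 reads in the thalidomide library and 13 in the control library, and 11 in the combination library and 23 in the spermine NONOate library. NYX, a retinal proteoglycan, had 41 reads in the thalidomide library and 12 in the control library, and 9 in the combination library and 35 in the spermine NONOate library. CHRM5, a muscarinic receptor, had 22 reads in the thalidomide library and 7 in the control library, and 12 in the combination library and 31 in the spermine NONOate library. GAS2L2 was the one of the 5 that was lower against control, with 4 reads in the thalidomide library and 24 in the control library, and 23 in the combination library and 0 in the spermine NONOate library. ENSGALG00000023900, which bears no symbol, had 1577 reads in the thalidomide library and 4 in the control library, and 3 in the combination library and 20 in the spermine NONOate library. It lies on chromosome 9, as do both genes of the symbol MUC4, which had 1626 and 1638 reads in the thalidomide library. Whether these genes share reads was not tested. Reads of 5S rRNA genes fell on 9 tested copies, of which 6 were higher in the thalidomide library, yet all copies summed to 3178 reads there, against 4634 in the control library.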
